A study of Mus musculus with 18 samples.

Results

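Glycolysis is the chain of enzymes that turns glucose into pyruvate, and the hypoxia response is the program that cells switch on when oxygen is short. The 35 genes described here were taken by name as enzymes and transporters of glycolysis and lactate, or as well-known targets of the hypoxia-inducible factors (HIF). They are 35 of the 26143 genes of the table, and all 35 were also among the 15235 genes that passed the filter on low values. RNA was sequenced in 18 mouse libraries labelled as squamous epithelium. WT is wild type esophagus (3 libraries). p53 is tongue with 1 LSL-p53 R172H allele beside a wild type allele (3 libraries), E20 is tongue with LSL-PIK3CA H1047R (6 libraries), and E20/p53 is tongue with both alleles and K14-Cre (6 libraries). LSL marks an allele that stays silent until the recombinase Cre removes a stop element, and K14 is a promoter of basal keratinocytes. The labels name a Cre for E20/p53 and none for p53 or E20. The series is on tumors of the head and neck started with the carcinogen 4NQO, but the labels give neither age nor sex nor which libraries came from a tumor.

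The members belong to a pathway in which hexokinases, phosphofructokinases, aldolases and the enzymes below them pass glucose carbon on to pyruvate. Pyruvate then goes to mitochondria or, through lactate dehydrogenase, to lactate, which monocarboxylate transporters carry out of the cell. Prolyl hydroxylases of the Egln family use oxygen to mark HIF for degradation, so that in low oxygen HIF accumulates and raises many glycolytic genes, Vegfa, Bnip3 and Egln3 itself. PI3-kinase signalling is known to raise glucose uptake and glycolysis, and wild type p53 to restrain them. In squamous epithelium the glucose transporter Slc2a1 is most abundant in the basal layer.

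Libraries held from about 14592000 to about 18176000 reads. Levels are CPM, read counts scaled to a common library total, with mean ± SD over 3 libraries, and a change is a difference in log2 between group means. Within a group, E20 libraries 1 to 3 and 4 to 6 stood apart, as did E20/p53 libraries 1 to 3 and 4 to 6, so that values are given for 6 sets of 3. The labels do not name these sets, which were recognised from the values. No label says that libraries of a group or set are separate animals. The p-values below therefore reflect the spread among libraries alone, and that spread may be technical. All groups share a common estimate of it, so the differences between sets inside E20 and E20/p53 enter every comparison, also p53 against WT. For Adm in p53 against WT, the SE was 0.69, while the SD in log2 was 0.115 inside WT and 0.092 inside p53. WT is another tissue than the other groups, and genotype and tissue cannot be told apart in a comparison with it. The 14 keratinocyte markers, which the label calls for, summed to 1434 to 1450 CPM in E20/p53 1 to 3, 346.2 to 357.0 in WT and 160.2 to 183.6 in E20 1 to 3. They summed to 8.697 to 11.32 CPM in p53, 5.686 to 6.608 in E20 4 to 6 and 11.53 to 13.36 in E20/p53 4 to 6, so the label was not borne out by its defining markers in those 3 sets. In E20 4 to 6, Krt4, Krt13, Krt6a, Cdh1 and Epcam were at 0, and in E20/p53 4 to 6, Krt5, Krt15, Krt4, Krt6a and Epcam. Krt4 and Dsg3 were at 0 in WT, Krt15 and Dsg3 in p53 and Krt4 in E20 1 to 3. The 10 fibroblast markers summed to 463.9 to 512.0 CPM in E20/p53 1 to 3, 1619 to 1763 in WT and 9625 to 24570 in the other sets. The 15 skeletal muscle markers summed to 2217 to 2359 CPM in p53, 721.5 to 846.3 in the E20 libraries and those of E20/p53 4 to 6, and at most 15.64 in WT and E20/p53 1 to 3. In bulk samples, fewer cells of a type and less RNA per cell cannot be told apart.

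Promoters of 4 members, chosen after their values were seen, are shown as examples of the differences described below: Bnip3 and Ankrd37 of those inside E20, where Aldoc and Egln3 differed more, and Slc16a3 and P4ha1 of the rises from WT to tongue. On GRCm38 (GENCODE M21) Bnip3 spans chr7:138890836-138909519, Ankrd37 chr8:45996902-46005707, Slc16a3 chr11:120948480-120960868 and P4ha1 chr10:59323296-59373304, and each window below covers the upstream region and the start of a first exon. Each runs from 250 bases before to 50 bases after the transcription start of RefSeq on GRCm38.p6. Capitals mark ACGTG or GCGTG on either strand, the core that HIF binds, and overlapping matches are joined. On the minus strand are Bnip3 (chr7:138909457-138909756, 5 matches) and Ankrd37 (chr8:45999801-46000100, 4 matches). On the plus strand are Slc16a3 (chr11:120948817-120949116, 2 matches) and P4ha1 (chr10:59323046-59323345, 3 matches).
Bnip3: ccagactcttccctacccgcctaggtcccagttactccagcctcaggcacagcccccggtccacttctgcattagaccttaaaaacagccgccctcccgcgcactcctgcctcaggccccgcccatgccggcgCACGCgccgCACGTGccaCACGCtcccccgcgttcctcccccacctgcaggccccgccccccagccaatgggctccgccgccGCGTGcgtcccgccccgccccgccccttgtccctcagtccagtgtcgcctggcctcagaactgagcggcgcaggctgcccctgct
Ankrd37: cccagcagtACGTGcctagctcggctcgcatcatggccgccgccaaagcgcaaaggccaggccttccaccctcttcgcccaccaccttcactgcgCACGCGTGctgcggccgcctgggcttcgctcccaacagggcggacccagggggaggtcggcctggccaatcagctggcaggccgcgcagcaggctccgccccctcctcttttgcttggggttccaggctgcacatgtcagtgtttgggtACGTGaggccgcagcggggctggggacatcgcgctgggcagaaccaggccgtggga
Slc16a3: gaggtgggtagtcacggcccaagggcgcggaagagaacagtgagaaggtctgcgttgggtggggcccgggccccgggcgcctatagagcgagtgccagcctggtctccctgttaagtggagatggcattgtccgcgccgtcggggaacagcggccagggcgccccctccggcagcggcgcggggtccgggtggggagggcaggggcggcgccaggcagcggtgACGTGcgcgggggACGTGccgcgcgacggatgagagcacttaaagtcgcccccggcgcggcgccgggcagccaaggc
P4ha1: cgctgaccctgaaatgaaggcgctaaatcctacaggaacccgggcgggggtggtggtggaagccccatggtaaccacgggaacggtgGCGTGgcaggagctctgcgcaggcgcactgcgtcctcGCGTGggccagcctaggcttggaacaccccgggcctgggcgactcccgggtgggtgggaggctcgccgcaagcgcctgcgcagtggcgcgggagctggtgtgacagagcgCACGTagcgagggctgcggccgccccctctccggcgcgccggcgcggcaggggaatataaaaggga
In Bnip3, the palindrome CACGTG counts on both strands, with matches that begin 108 and 107 bases upstream of the start. In Slc16a3 the matches begin 27 and 14 bases upstream. RefSeq promoters were found for 33 of the 35 members, all but Ndrg1 and Bhlhe40. Of their 49 windows, 38 (77.6%) held a match, against 59.8% of the 14605 windows of the genes tested and 43.8% of all 32851 windows in the table. CACGTG, which other factors also bind, was in 5 of the 49 windows (10.2%) and in 9.56% of those of the genes tested. A match describes the letters and does not show that a factor binds there.

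The members differed widely inside the E20 group. In E20 4 to 6, 31 of 35 members lay above E20 1 to 3 without overlap of the libraries, against 33.2% of all genes tested, and Ldhb alone lay below (34.7% of all genes). Pfkfb4, Car9 and Adm overlapped. The median difference of the 35 members was 0.81 on the log2 scale, and 12 members were at least 2-fold higher, against 6.33% of all genes tested. In E20/p53 the order was mostly the other way: libraries 4 to 6 lay below 1 to 3 for 24 members (38.8% of all genes) and above for 10 (41.4%), with Car9 overlapping and a median of -0.58. Of the 35 members, 8 were at least 2-fold lower in E20/p53 4 to 6, against 15.4% of all genes. These differences describe sets found in the data and were given no test. Keratinocyte marker sums were low in libraries 4 to 6 of both groups. Fibroblast marker sums averaged 19430 and 20180 CPM in libraries 1 to 3 and 4 to 6 of E20, and 483.0 and 23320 CPM in those of E20/p53. The part of the marker genes in these differences was not tested.

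**Figure D1:**
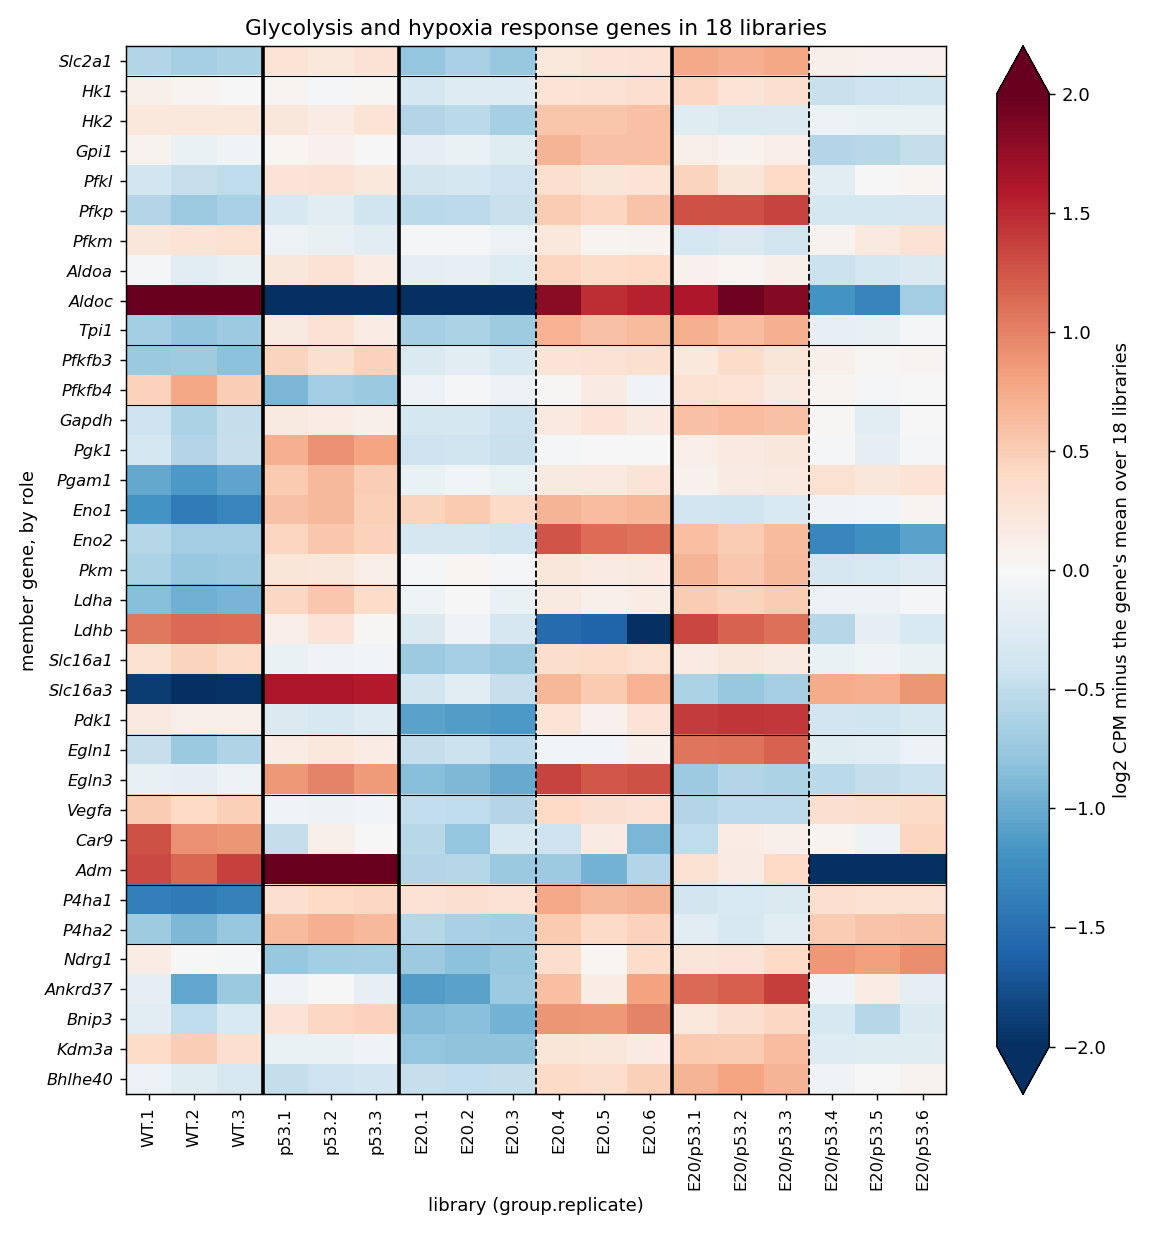
Level of each of the 35 members (rows, grouped by role) in each of the 18 libraries (columns), as log2 CPM minus the gene's mean over the libraries, with colours ending at 2 in either direction. Solid lines part the groups and dashed lines the sets. E20 1 to 3 is mostly blue, with Eno1 and P4ha1 red. E20 4 to 6 is mostly red, with Ldhb, Adm and Car9, at 3.241, 8.516 and 2.383 CPM in E20 4 to 6, blue.

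RNA levels of the genes for glucose uptake and trapping differed between the sets. Slc2a1, the main glucose transporter of basal epithelium, was at 65.37, 70.7 and 65.75 CPM in E20 1 to 3 and at 129.3, 133.6 and 135.9 CPM in E20 4 to 6. It stood at 187.9, 182.1 and 190.8 CPM in E20/p53 1 to 3 and at 119.0, 118.8 and 118.0 CPM in E20/p53 4 to 6. WT libraries, at 70.2 to 74.25 CPM, overlapped E20 1 to 3, and p53 libraries, at 129.2 to 136.4 CPM, overlapped E20 4 to 6. Hk2, the hexokinase that hypoxia and PI3-kinase signalling induce, was lowest in E20 1 to 3 (81.79 ± 3.44 CPM) and highest in E20 4 to 6 (182.1 ± 2.15 CPM). WT and p53 lay between them, at 142.6 ± 0.139 and 143.7 ± 6.27 CPM, and did not differ beyond their spread. Hk1, the housekeeping hexokinase, spanned only 193.0 CPM in E20/p53 4 to 6 to 326.4 CPM in E20/p53 1 to 3.

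The other steps of upper glycolysis ranged over less than 3-fold between sets, apart from Pfkp and Aldoc. Gpi1 (glucose phosphate isomerase), at 762.0 CPM, and Aldoa, the main aldolase outside liver and brain, at 2094 CPM, peaked in E20 4 to 6 and were lowest in E20/p53 4 to 6, at 341.7 and 1241 CPM. Tpi1 (triosephosphate isomerase) was at 1701 and 1753 CPM in E20 4 to 6 and E20/p53 1 to 3, and at 657.1 to 1259 CPM in the other sets. Of the phosphofructokinases, which catalyse the committed step, Pfkp reached 264.5, 267.7 and 280.5 CPM in E20/p53 1 to 3, 147.2 to 163.1 CPM in E20 4 to 6, and no more than 93.96 CPM in any other library. Pfkl was at 171.7 CPM in WT and 301.1 CPM in E20/p53 1 to 3, while Pfkm, the muscle form, ran from 76.53 CPM in E20/p53 1 to 3 to 116.5 CPM in WT. Aldoc, the aldolase of brain, had the widest range of all members, 46.29-fold between sets. It was at 54.19, 56.57 and 58.16 CPM in WT and at 1.138, 1.629 and 0.8823 CPM in p53. In E20 it was at 1.293 to 1.402 CPM in libraries 1 to 3 and at 21.36 to 26.67 CPM in libraries 4 to 6, a 16.5-fold difference. In E20/p53 the order was turned, with 23.63 to 29.53 CPM in libraries 1 to 3 and 3.068 to 4.74 CPM in libraries 4 to 6.

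Pfkfb3 and Pfkfb4 make fructose 2,6-bisphosphate, the strongest activator of phosphofructokinase. Pfkfb3 was lowest in WT (45.83 to 49.1 CPM) and highest in p53 (101.3 to 111.5 CPM). Pfkfb4 had the opposite order, with 18.31, 22.71 and 18.76 CPM in WT and 7.098, 8.275 and 8.004 CPM in p53. All 12 E20 and E20/p53 libraries lay between, from 12.25 to 16.47 CPM.

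Of the 6 members of lower glycolysis, 5 had their lowest set mean in WT, and Eno2 was lowest in E20/p53 4 to 6. Gapdh and Pgk1 libraries of WT overlapped those of E20 1 to 3, however. With its copy Gapdh-ps15 added, Gapdh had its lowest mean in E20 1 to 3 (329.1 ± 12.3 CPM), below WT (343.2 ± 19.2 CPM). Pgam1 (phosphoglycerate mutase) was at 242.6, 224.3 and 238.2 CPM in WT and at 712.5, 779.7 and 698.8 CPM in p53. Its 12 other libraries lay between, from 450.3 to 609.0 CPM. Pgk1, which makes ATP from bisphosphoglycerate, was highest in p53 at 228.5, 263.2 and 239.9 CPM, above the 102.8 to 163.2 CPM of all E20 and E20/p53 libraries. Gapdh ranged from 169.2 CPM in WT to 363.2 CPM in E20/p53 1 to 3, and Pkm, pyruvate kinase, from 1935 to 4872 CPM over the same sets. Eno2, the enolase of neurons, was at 145.5 ± 9.32 CPM in E20 4 to 6 and 28.37 ± 2.33 CPM in E20/p53 4 to 6.

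Eno1, the general enolase, was at 224.4 to 258.4 CPM in WT, 816.6 to 922.7 in p53, 772.1 to 948.0 in E20 and 447.7 to 612.1 in E20/p53. It is the member whose value most needs care, since Eno1b is a near-identical copy and reads can be split between them. Eno1b was at 669.5 CPM in WT, 1404 in p53, 779.9 and 1024 in libraries 1 to 3 and 4 to 6 of E20, and 1285 and 1485 in those of E20/p53. Summed with Eno1b, the level was 910.4 ± 60.6 CPM in WT, 2280 ± 121 in p53, 1587 ± 71.3 and 1955 ± 48.3 in E20, and 1745 ± 79.4 and 2066 ± 104 in E20/p53. On that sum E20 and E20/p53 libraries overlapped and WT was again lowest, while the highest mean was in p53 and not, as for Eno1 alone, in E20 4 to 6.

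**Figure D2:**
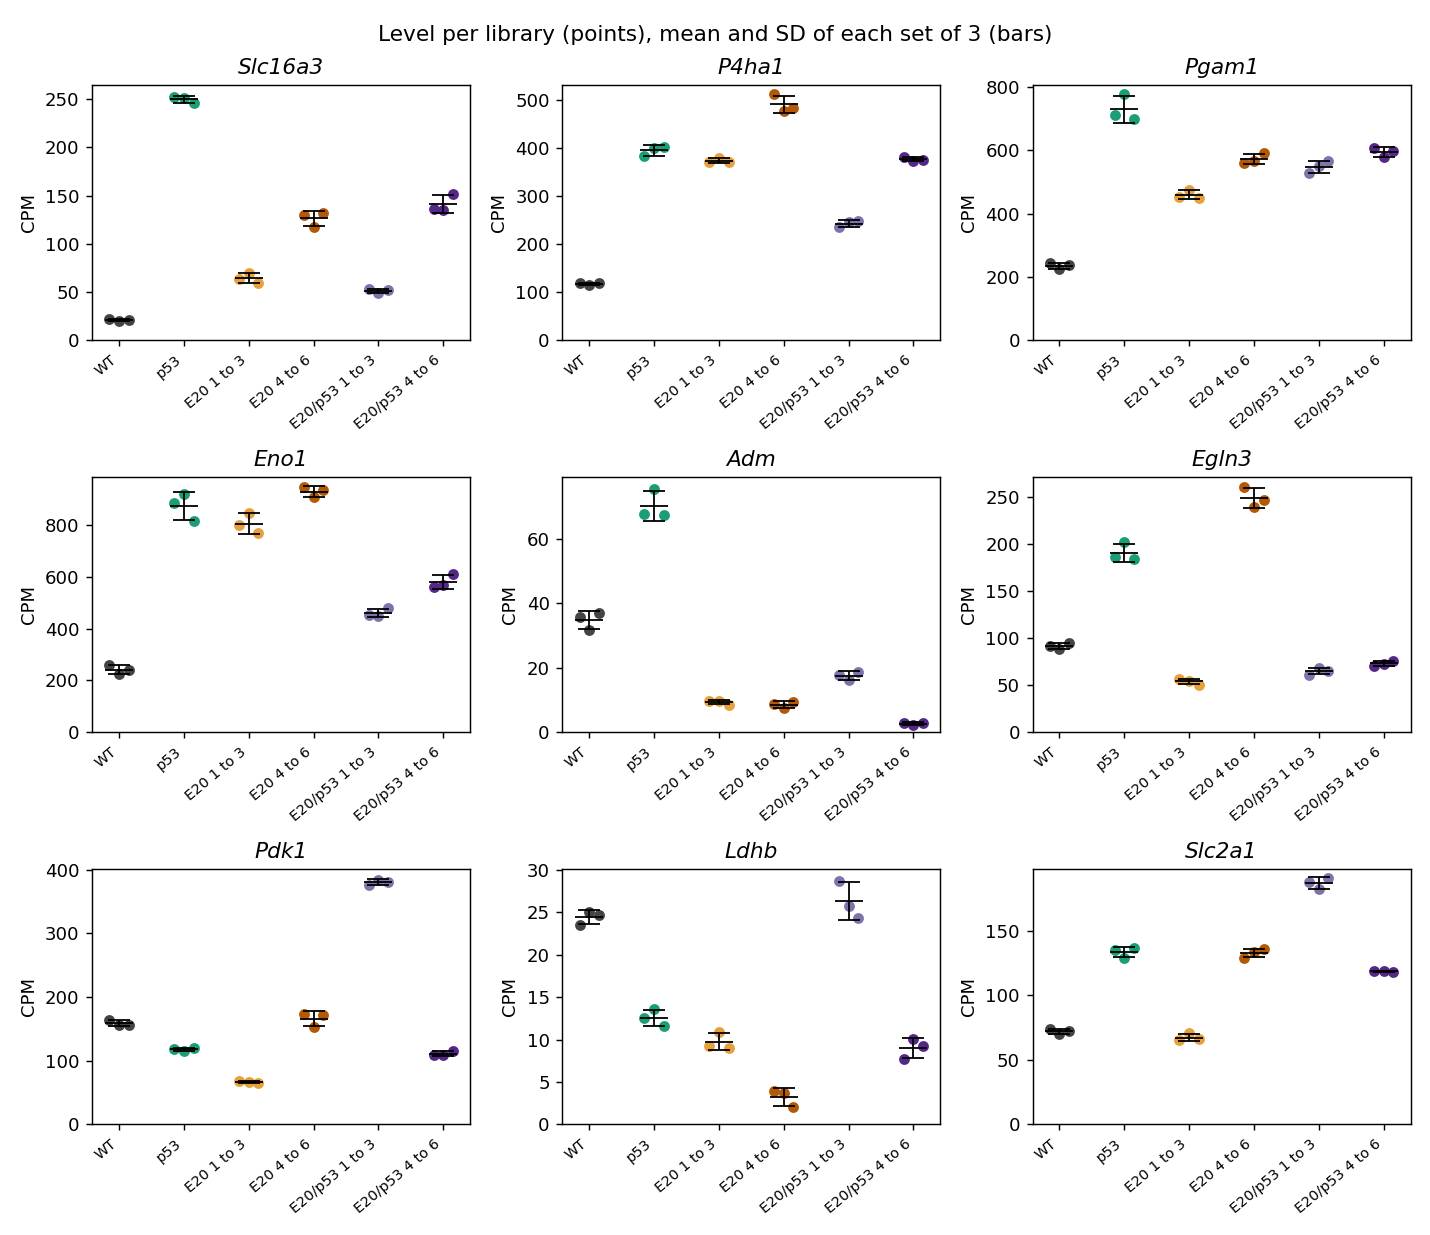
CPM of 9 members in each library (points) with mean and SD of each set of 3 (bars), each panel with its own axis from 0. Slc16a3 and P4ha1 are lowest in WT, at 20.66 and 116.8 CPM, and Adm is lowest in E20/p53 4 to 6, at 2.575 CPM.

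The genes of lactate and pyruvate did not move as 1 block. Slc16a3 (MCT4), the transporter that exports lactate from glycolytic cells, was at 21.91, 19.26 and 20.81 CPM in WT and at 251.9, 251.5 and 245.8 CPM in p53. It was at 59.42 to 70 CPM in E20 1 to 3, 117.1 to 131.8 in E20 4 to 6, 48.31 to 52.56 in E20/p53 1 to 3 and 134.5 to 151.5 in E20/p53 4 to 6. WT lay below and p53 above all other libraries, and libraries 4 to 6 lay above 1 to 3 in both groups. Slc16a1 (MCT1), which carries lactate either way, ranged from 105.3 CPM in E20 1 to 3 to 223.3 CPM in WT. Ldha, the form of lactate dehydrogenase that favours lactate, was lowest in WT (842.6 to 902.1 CPM) and at 1497 to 2384 CPM in all tongue libraries. Ldhb, the form that favours pyruvate, was a rare message, at 3.926, 3.738 and 2.06 CPM in E20 4 to 6 and 28.75, 25.78 and 24.39 CPM in E20/p53 1 to 3. Pdk1, a kinase that shuts pyruvate out of the citric acid cycle, reached 376.4, 384.3 and 380.8 CPM in E20/p53 1 to 3. The other libraries lay below, from 64.52 CPM in E20 1 to 3 to 173.6 CPM in E20 4 to 6.

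The 2 oxygen sensors had different orders. Egln1, the main HIF hydroxylase in normal oxygen, was at 266.6, 268.4 and 289.0 CPM in E20/p53 1 to 3, against 76.06 to 147.4 CPM elsewhere. Egln3, the form that HIF induces most, was at 56.44, 54.92 and 50.5 CPM in E20 1 to 3 and at 261.2, 240.0 and 247.4 CPM in E20 4 to 6. It was at 184.8 to 202.2 CPM in p53, 88.94 to 95.44 CPM in WT and 61.38 to 75.96 CPM in all E20/p53 libraries. So the set with the highest Egln1 was among the low sets for Egln3.

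Of the secreted and pH-regulating targets, Adm (adrenomedullin, a vasodilator peptide) was at 67.69, 75.45 and 67.37 CPM in p53 and at 31.68 to 36.81 CPM in WT. It was at 7.409 to 9.582 CPM in the 6 E20 libraries, 16.03 to 18.71 in E20/p53 1 to 3 and 2.102 to 2.858 in E20/p53 4 to 6. Vegfa, the main angiogenic factor, ranged from 253.5 CPM in E20/p53 1 to 3 to 509.1 CPM in WT. Car9, a carbonic anhydrase that is a classical marker of hypoxia, was among the rarest members. It was at 7.263, 5.634 and 5.533 CPM in WT and at 1.579 to 4.015 CPM in every tongue library.

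P4ha1 and P4ha2 hydroxylate proline in collagen. P4ha1 was at 118.0, 113.8 and 118.5 CPM in WT, 234.9 to 248.1 CPM in E20/p53 1 to 3 and 370.5 to 512.4 CPM in all other libraries. P4ha2 was at 77.39 CPM in WT, 86.18 in E20 1 to 3, 111.7 in E20/p53 1 to 3 and 183.7 to 211.8 CPM in the other sets. Fibroblast marker sums were also low in WT and in E20/p53 1 to 3, where they were at most 1763 CPM, and their part in the P4ha1 levels was not tested. P4ha2 was low in E20 1 to 3 as well, where the fibroblast marker sums were 18530 CPM or more, and their part in the P4ha2 levels was not tested.

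The other hypoxia-induced members mostly had their minimum in E20 1 to 3. Bnip3, a mitophagy receptor, was at 64.73 to 69.64 CPM there and at 226.9 to 247.9 CPM in E20 4 to 6. Ankrd37, a classical HIF target, was at 2.59 to 3.403 CPM in E20 1 to 3, 6.274 to 9.819 in E20 4 to 6 and 12.4 to 14.78 in E20/p53 1 to 3. Kdm3a, a histone demethylase, and Bhlhe40, a transcriptional repressor, were at 69.62 and 101.3 CPM in E20 1 to 3 and at 176.9 and 231.7 CPM in E20/p53 1 to 3. Ndrg1, a stress-responsive gene, was the only member highest in E20/p53 4 to 6, at 242.0, 234.5 and 254.2 CPM, against 75.08 to 83.57 CPM in p53 and E20 1 to 3.

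Counted over the members, E20/p53 1 to 3 held the highest level of 14 members (of all 15235 genes tested, 3103 were highest there) and E20 4 to 6 of 8 (15.1%). WT and p53 held the highest level of 6 members each (23% and 12.5%), E20/p53 4 to 6 of 1 (17.2%) and E20 1 to 3 of 0 (11.9%). The lowest level was in WT for 14 members (27%) and in E20 1 to 3 for 11 (13%). The 11 lowest in E20 1 to 3 were Slc2a1, Hk2, Slc16a1, Car9, Ndrg1, Egln3, Ankrd37, Bnip3, Pdk1, Kdm3a and Bhlhe40, of which none is an enzyme of the pathway below hexokinase. The 14 lowest in WT were mainly those enzymes, Pfkl, Pfkp, Tpi1, Gapdh, Pgk1, Pgam1, Eno1, Pkm and Ldha among them. With its copy Gapdh-ps15 added, Gapdh was lowest in E20 1 to 3 instead (329.1 CPM, against 343.2 CPM in WT). The ratio of the highest to the lowest set had a median of 2.74 over the members and 2.41 over all genes tested.

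**Figure D3:**
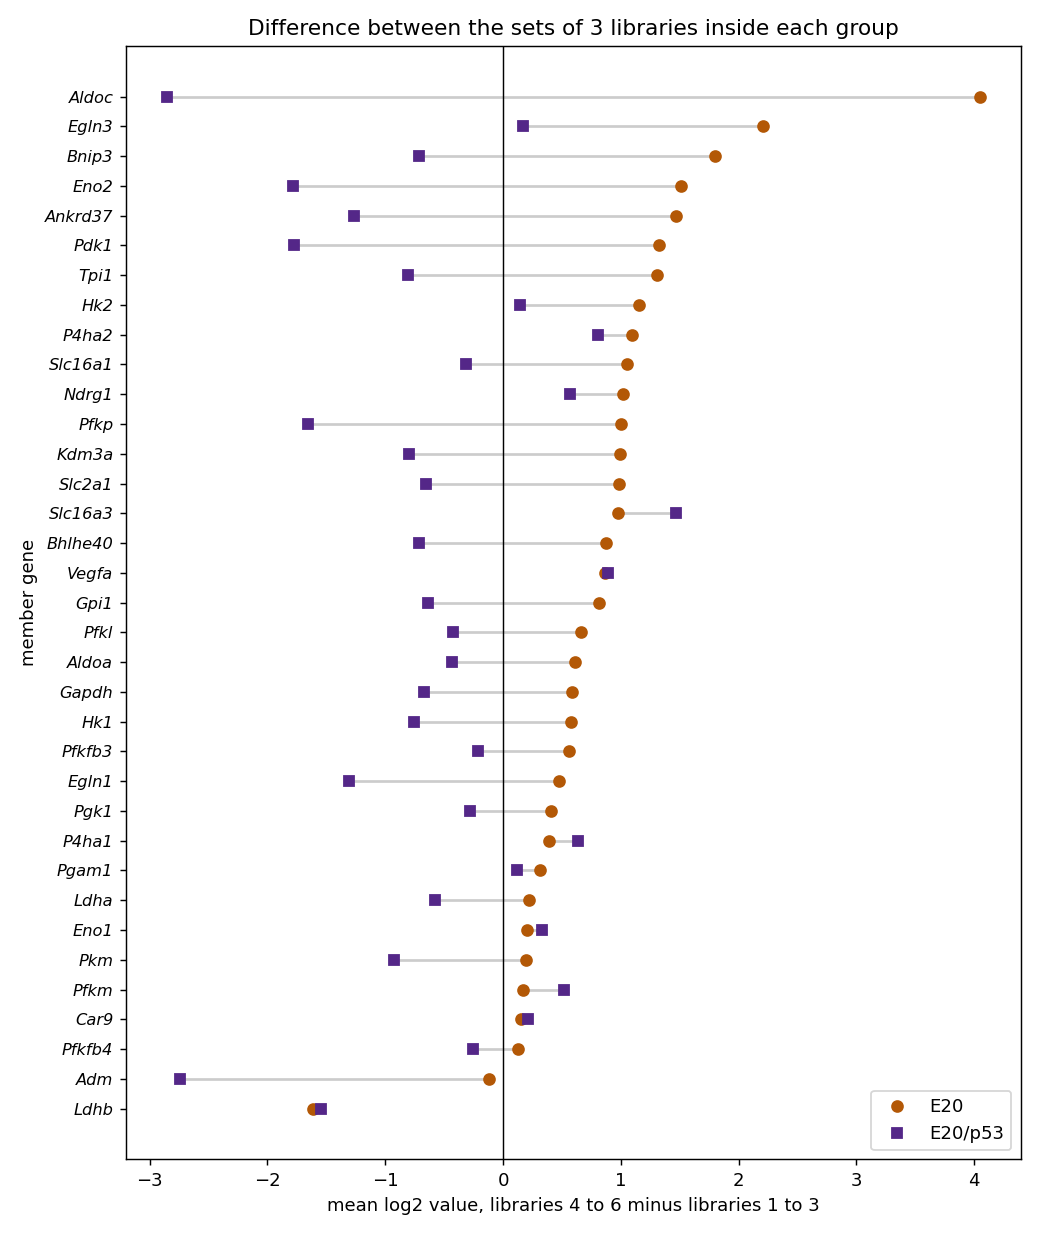
Difference in mean log2 value, libraries 4 to 6 minus 1 to 3, of each member in E20 (circles) and E20/p53 (squares), sorted by E20. Most circles lie right of 0 and most squares left, with medians of 0.81 and -0.58, and Ldhb lies left of 0 in both groups.

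The group comparisons within tongue set E20/p53, E20 and p53 side by side. E20/p53 differs from each of the others by an allele and by the Cre that its label names, and these cannot be told apart. Marker sums of cell types differed between these groups as well. In E20/p53 against E20, 7 of 35 members were called (20%), 5 higher and 2 lower, while 42.6% of all genes tested were called, 23% higher and 19.6% lower. The median change was 0.16 over the members and 0.05 over all genes. Only Eno1 fell without overlap of the groups (0 members higher and 1 lower, against 22.5% of all genes in either direction), by 0.75 on the log2 scale (SE 0.09, limma, adjusted p = 5e-06). With Eno1b added the change was 0.11 (adjusted p = 0.386), so the fall was not seen for the 2 copies together. The other 6 called members had overlapping groups and are named after their values were seen. Ldhb (1.46, SE 0.41, adjusted p = 0.00973), Ndrg1 (0.84, adjusted p = 0.00481, and 0.14 with voom weights, adjusted p = 0.309), Egln1 (0.70, adjusted p = 0.0333), Slc2a1 (0.66, adjusted p = 0.02) and Pgk1 (0.26, adjusted p = 0.0443) rose, and P4ha1 fell by 0.50 (adjusted p = 0.00773). Each of these 6 calls was lost when 1 set of 3 libraries was left out. Those on Pgk1 and Egln1 were also lost without any 1 of E20 replicates 1 to 3 or of E20/p53 replicates 1 to 3. Without E20 4 to 6, 20 members were called (57.1%, 19 higher and 1 lower), against 38.2% of all genes. Without E20/p53 4 to 6, 19 were called (54.3%, 15 higher and 4 lower), below the 65.1% of all genes, and with the 6 set means 0.

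In E20/p53 against p53, 9 of 35 members were called (25.7%), 3 higher and 6 lower, close to the 25.8% of all genes tested (12.9% higher and 12.9% lower). The median change was -0.04 over the members, 0.08 with quantile normalisation, and 0.02 over all genes. All 9 lay without overlap, as did 14 members in all, against 32.5% of all genes. Ndrg1 rose by 1.29 (SE 0.26, adjusted p = 0.00196), Pfkfb4 by 0.90 (SE 0.11, adjusted p = 2.4e-05) and Bhlhe40 by 0.78 (SE 0.25, adjusted p = 0.0317). Adm fell by 3.37 (SE 0.60, adjusted p = 7.01e-04), the largest change of a member between tongue groups. Slc16a3 fell by 1.56 (adjusted p = 0.00746), Egln3 by 1.47 (adjusted p = 0.0338), Pgk1 by 0.76 (adjusted p = 3.04e-04) and Pgam1 by 0.35 (adjusted p = 0.0112). Eno1 fell by 0.76 (adjusted p = 9.8e-05), a call that was lost with Eno1b added (-0.26, adjusted p = 0.109). Leaving out any single p53 library, or any one of replicates 1 to 3 of E20/p53, ended the calls of Bhlhe40 and Egln3, and Pgam1 was not called without p53 replicate 2 (adjusted p = 0.0708) or with quantile normalisation (-0.16, adjusted p = 0.204). Without E20/p53 4 to 6, 20 members were called (57.1%), below the 63.9% of all genes, and with the 6 set means 0.

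**Figure D4:**
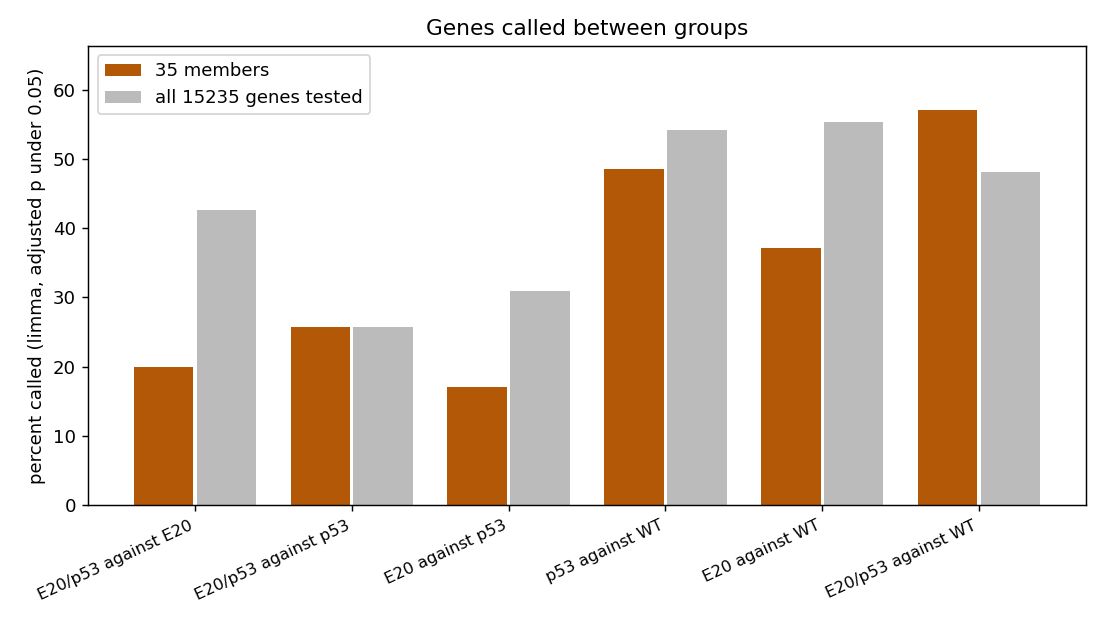
Percent of the 35 members (orange) and of all 15235 genes tested (grey) with an adjusted p under 0.05 in limma, for the 6 comparisons. With all libraries in the fit, the members' share is above that of all genes only in E20/p53 against WT, 57.1% against 48.1%, and lowest in E20 against p53, 17.1%.

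E20 against p53 compared tongue groups that differ in which allele they carry, and called 6 of 35 members (17.1%), 1 higher and 5 lower, against 30.9% of all genes (14.5% higher and 16.4% lower). The median change was -0.18 over the members and -0.01 over all genes. The 6 were again without overlap, as were 10 members in all, against 45.5% of all genes. Pfkfb4 rose by 0.75 (SE 0.11, adjusted p = 8.9e-05). Adm fell by 2.98 (SE 0.60, adjusted p = 0.00129), Slc16a3 by 1.47 (adjusted p = 0.00805), Pgk1 by 1.02 (SE 0.12, adjusted p = 1.2e-05), Pgam1 by 0.51 (adjusted p = 5.93e-04) and Pfkfb3 by 0.40 (adjusted p = 0.0388). Eno1 alone was not called (-0.01, adjusted p = 0.942), but with Eno1b added it was called lower (-0.37, SE 0.12, limma, adjusted p = 0.0242). Pfkfb3 was not called without any one library of p53 or of E20 1 to 3, and without E20 1 to 3 neither Pfkfb3 (adjusted p = 0.275) nor Slc16a3 (adjusted p = 0.0748) was. Without E20 1 to 3, 12 members were called (34.3%), against 40.6% of all genes. Without E20 4 to 6, 17 were called (48.6%), against 29% of all genes, and with the set means 0. E20/p53 against p53 and E20 against p53 share the p53 libraries, which were those with high Adm, Slc16a3, Pgk1 and Pgam1 and low Pfkfb4. The skeletal muscle markers were also highest in p53, at 2217 to 2359 CPM, and their part in these changes was not tested.

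Against WT, in another tissue, 13 to 20 members were called. In p53, 17 of 35 (48.6%) were called, 12 higher and 5 lower, against 54.2% of all genes (29.3% higher and 24.9% lower). In E20, 13 (37.1%) were called, 7 higher and 6 lower (6 and 9 with quantile normalisation), against 55.3% (29% and 26.4%). In E20/p53, 20 (57.1%) were called, 16 higher and 4 lower, against 48.1% (26.5% and 21.6%). The median change of the members was 0.65, 0.33 and 0.51 in the 3 comparisons, and that of all genes 0.04, 0.04 and 0.05. Without E20 4 to 6 the median of the members in E20 against WT was -0.15, and without E20 1 to 3 it was 0.66, with 25 members called (71.4%), against 54.2% of all genes. The 3 comparisons share the WT libraries. Without overlap of the groups were 32, 18 and 26 members, against 82.2%, 64.3% and 50.5% of all genes.

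Slc16a3, P4ha1 and Pgam1 were among the 4 largest rises in each comparison with WT. Slc16a3 rose by 3.59 (SE 0.44, adjusted p = 5.87e-06) in p53, 2.12 (SE 0.38, adjusted p = 2.09e-04) in E20 and 2.03 (SE 0.38, adjusted p = 3.84e-04) in E20/p53. P4ha1 rose by 1.76, 1.88 and 1.37 (adjusted p = 1.7e-06, 1.14e-07 and 4.74e-06) and Pgam1 by 1.63, 1.13 and 1.28 (adjusted p = 4.73e-09, 4.38e-08 and 1.24e-08). Eno1 rose by 1.86 in p53 and 1.85 in E20 (adjusted p = 5.53e-09 and 6.52e-10), and with Eno1b added by 1.33, 0.95 and, in E20/p53, 1.06. Ankrd37 rose by 1.24 in E20/p53 (SE 0.45, adjusted p = 0.0334), a call lost without WT replicate 2 or 3, or without any 1 of E20/p53 replicates 1 to 3. Gapdh was called in p53 against WT, but not with the copy Gapdh-ps15 added (0.39, adjusted p = 0.183).

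Of the members that fell against WT, Car9 was lower in each tongue group, by 1.13, 1.47 and 1.00 in p53, E20 and E20/p53 (adjusted p = 0.0027, 7.75e-05 and 0.00267). Aldoc fell by 5.5 in p53 (SE 1.25, adjusted p = 0.00155) and 3.29 in E20 (SE 1.08, adjusted p = 0.0164), and the latter call was lost without E20 1 to 3 (-1.27, adjusted p = 0.209). Pfkfb4 also fell in each, by 1.34 in p53 (adjusted p = 3.21e-07), 0.60 in E20 (adjusted p = 2.51e-04, named after its value was seen) and 0.44 in E20/p53 (adjusted p = 0.00342). Adm fell by 1.97 in E20 (adjusted p = 0.011) and 2.36 in E20/p53 (adjusted p = 0.00406), and was not called in E20 without E20 4 to 6 (adjusted p = 0.0502). Ldhb fell by 2.13 in E20 (SE 0.51, adjusted p = 0.00202). Ndrg1 fell by 0.74 in p53 (adjusted p = 0.0486), and this call was lost without any 1 of the 6 libraries. With the libraries averaged to 6 set means, 0 members were called in any of the 6 comparisons. At an unadjusted p under 0.05 there were then 0 members in E20/p53 against E20, 1 in each of the other 2 comparisons within tongue, 7 in p53 against WT and 4 in each of the other 2 against WT. Eno1, P4ha1, Pgam1 and Slc16a3 were among those in all 3 comparisons with WT, and in these fits 0 to 8 genes of all those tested were called per comparison.

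Isozyme shares were taken per kb of exon, so that different genes can be set side by side, and were given no test. Slc16a3 made up 7.17 ± 0.770% of the Slc16a1 and Slc16a3 reads per kb in WT and 56.2 ± 0.982% in p53. In E20/p53 it made up 16.6 to 18.5% in libraries 1 to 3 and 41.0 to 44.5% in libraries 4 to 6. In E20 the 2 sets were alike, at 33.7 ± 1.34% and 32.5 ± 1.82%, since both transporters were higher in libraries 4 to 6. Egln3 was 44.4 ± 1.09% of the Egln pair in E20 1 to 3, but 72.7 ± 1.61% in E20 4 to 6. It was 24.2 ± 1.09% of the pair in libraries 1 to 3 of E20/p53. Hk2 was 35.6 ± 1.33% and 31.0 ± 0.669% of the hexokinase pair in E20 1 to 3 and E20/p53 1 to 3, and 43.3 to 45.5% in the other 4 sets. Pfkp was 22.9 ± 0.839% of phosphofructokinase reads per kb in E20/p53 1 to 3, 13.5 ± 0.712% in E20 4 to 6 and 7.90 to 9.55% elsewhere. Pfkfb4 was 39.2 ± 2.38% of its pair in WT and 10.1 ± 1.05% in p53. Aldoa and Ldha made up over 94% of their pairs in every set, so the wide ranges of Aldoc and Ldhb concerned minor forms. The shares depend on the gene length used, but the order of the sets within a pair does not.

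**Figure D5:**
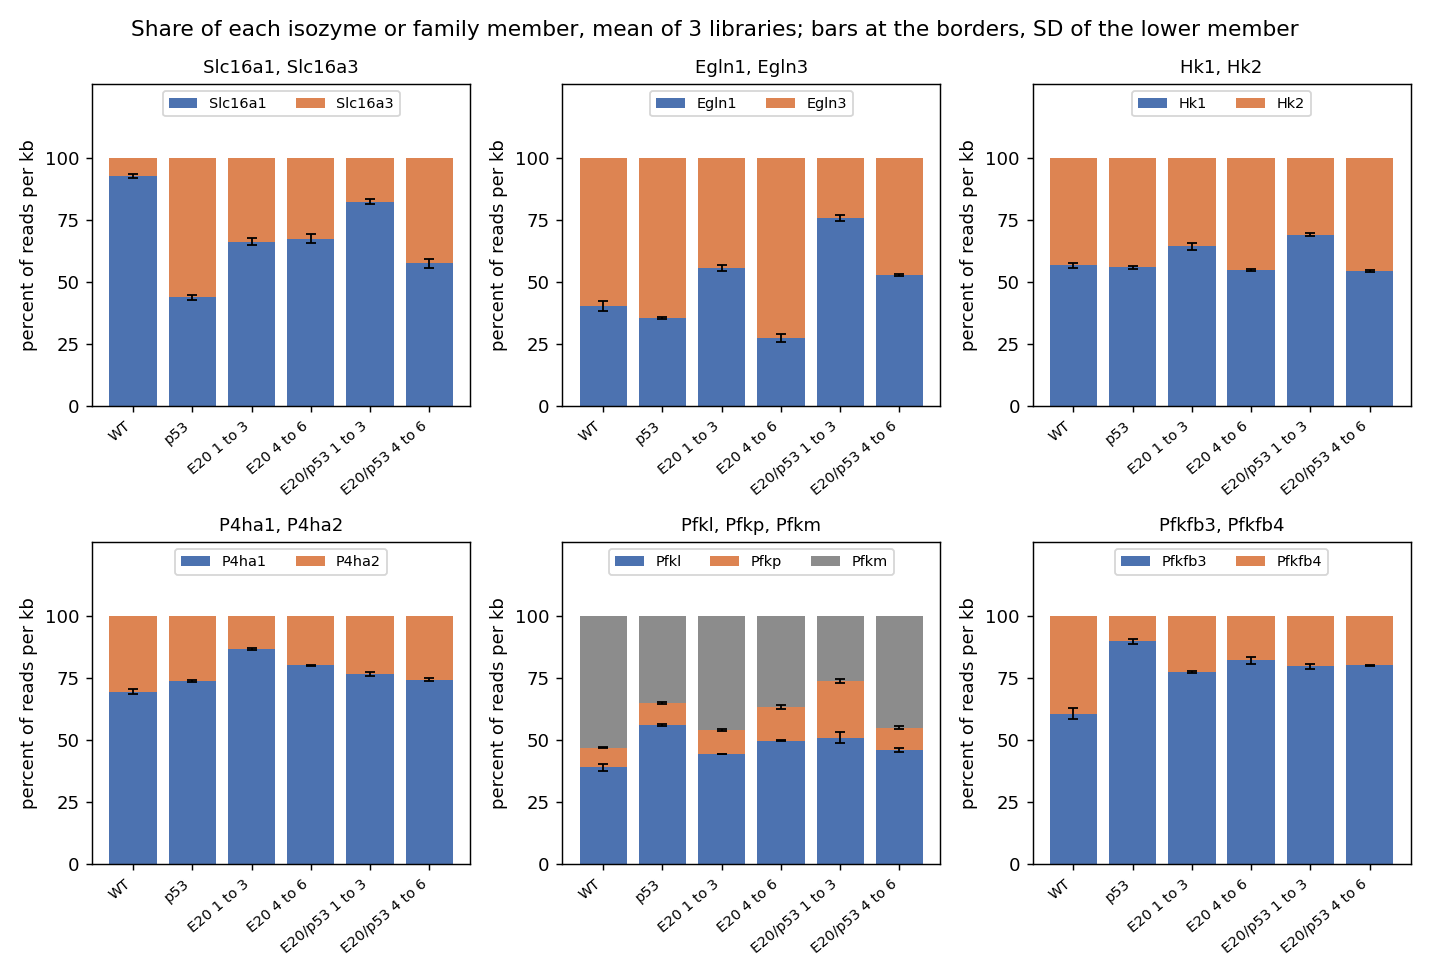
Share of each isozyme in its family (percent of reads per kb of exon, mean of 3 libraries, black bars SD) in the 6 sets. Slc16a3 goes from 7.17% in WT to 56.2% in p53, and Egln3 from 24.2% in E20/p53 1 to 3 to 72.7% in E20 4 to 6.

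Other genes of the pathway were counted from lists chosen by function. Beside these counts, 42.6% of all genes tested were called in E20/p53 against E20, 25.8% in E20/p53 against p53 and 30.9% in E20 against p53. Of 14 further glycolysis genes tested of 19 listed, 4 were higher and 3 lower in E20/p53 against E20, 2 and 4 in E20/p53 against p53, and 2 and 2 in E20 against p53. Hkdc1 (a hexokinase-like enzyme), Slc2a3 (the neuronal glucose transporter) and Eno3 (the muscle enolase) fell in E20/p53 against E20, by 3.11, 1.98 and 1.62 (adjusted p = 0.00023, 0.0035 and 0.023). Hkdc1 was near the floor, at 1.214 and 1.242 CPM in libraries 1 to 3 and 4 to 6 of E20, and 0 and 0.310 CPM in those of E20/p53. Slc2a3 was at 3.182 to 4.74 CPM in E20/p53 4 to 6, which overlapped the 3.885 to 4.969 CPM of E20 1 to 3. Eno3 was at 52.94 CPM in E20/p53 1 to 3 and 310.9 to 554.4 CPM in the other sets. Of 13 genes of pyruvate entry into mitochondria, 1 was higher and 6 lower in E20/p53 against E20. Pdk4, another kinase of pyruvate dehydrogenase, fell by 4.31 (SE 1.37, limma, adjusted p = 0.019). Its level was 0.194 CPM in E20/p53 1 to 3 but 50.75 CPM in E20/p53 4 to 6. In E20 it was 107.7 and 45.39 CPM in libraries 1 to 3 and 4 to 6, so E20/p53 4 to 6 lay above E20 4 to 6. Pcx fell by 1.07 (adjusted p = 0.0011) and Mpc2, a subunit of the pyruvate carrier, by 0.60 (adjusted p = 3.7e-06). Against p53 the counts of that list were 4 higher and 4 lower in E20/p53 and 4 and 2 in E20, with Pdk2 higher by 0.99 in both (adjusted p = 0.0018 and 0.0011).

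Of 12 tested genes that encode or regulate HIF, 2 were called in E20/p53 against E20, both lower, against 42.6% of all genes. They were Epas1, which encodes HIF-2 alpha (-1.61, SE 0.44, limma, adjusted p = 0.0079), and Egln2 (-0.38, adjusted p = 9.4e-05). Epas1 stood at 24.58 and 32.46 CPM in E20 1 to 3 and 4 to 6. In E20/p53 it stood at 3.946 CPM in libraries 4 to 6 and 21.51 CPM in libraries 1 to 3, which overlapped E20 1 to 3. In E20/p53 against p53, limma called 0 of these 12 genes (2 lower at an unadjusted p under 0.05). In E20 against p53, 1 was higher and 2 lower. Against WT, 4 were higher and 1 lower in p53, 4 and 2 in E20, and 3 and 1 in E20/p53, and Hif1a rose by 0.77 in p53 (adjusted p = 0.0058) and 0.82 in E20 (adjusted p = 0.0012). Hif1a stood at 316.5 CPM in WT and at 684.4 CPM, its highest level, in E20 4 to 6. In E20/p53 it was also above WT, at 610.8 and 418.4 CPM in libraries 1 to 3 and 4 to 6, and its change there is not given here. Of 40 other hypoxia targets tested, 8 were higher and 7 lower in E20/p53 against E20. In E20/p53 against p53 the counts were 4 and 10, and in E20 against p53 6 and 10. All genes were called at 42.6%, 25.8% and 30.9% in these comparisons. Edn1 (endothelin) and Flt1 (a VEGF receptor) rose by 4.07 and 3.70 in E20/p53 against E20 (adjusted p = 0.00072 and 5.2e-05), and Pgf, a relative of Vegfa, fell by 2.81 (adjusted p = 0.00076). Loxl2, a collagen crosslinking enzyme, changed by -3.32 in E20/p53 and -4.95 in E20 against p53 (adjusted p = 0.0098 and 0.00037). Against WT, 18 of the 40 were higher and 8 lower in p53, 14 and 8 in E20, and 16 and 6 in E20/p53. All genes were called at 54.2%, 55.3% and 48.1% there. Of 7 pentose phosphate genes, at most 2 were called in any comparison within tongue, all lower.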

How the data were processed

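The deposited table of the authors holds log2 values for 26143 genes in 18 libraries. The TruSeq Stranded mRNA LT kit was used, per the labels' protocols. Per the submitters' processing notes, bcl2fastq 1.8.4, Trimmomatic and featureCounts were used with the build mm10. Neither the aligner nor the annotation nor the way totals were scaled is given in the sources used here. Each deposited log2 value is log2 of (reads + 1) divided by a scaled total, since 100% gave whole reads (tolerance 0.001) with the column's minimum set to 0 reads. Scaled totals were 0.939 to 1.118 times the reads.

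Genes were tested when at least 3 libraries reached 0.635 CPM (10 reads in a library of median depth) and all libraries together at least 15 reads. limma 3.58.1 in R 4.3.3, with the mean-variance trend, was fitted to the deposited log2 values of all 18 libraries with 4 group means (14 residual degrees of freedom). Benjamini-Hochberg adjustment ran over 15235 genes and an adjusted p under 0.05 was called. The script was tested on simulated data. CPM levels, isozyme shares (per length of the exon union of GENCODE M21 on the same build) and promoter matches (RefSeq, GRCm38.p6) were computed from the same values. The members, lists and tests were chosen with earlier results of these data known. Changes are given for up to 8 higher and 8 lower called members without overlap in tongue, up to 4 and 4 against WT, and up to 3 called genes of each list. Alternatives were other scalings, offsets, filters, weights, a replicate block, the compared groups alone, set means, and libraries or sets left out. The sum over near-identical copies and the longest transcript as length were added after the data had been seen.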

Additional observations from a re-analysis of the deposited data

How the results depend on the processing

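Counts of members called are given in the order E20/p53 against E20, E20/p53 against p53, E20 against p53, p53 against WT, E20 against WT and E20/p53 against WT, where they were 7, 9, 6, 17, 13 and 20. Another scaling, offset or filter on low values kept each count within 1.5 times. Voom with quality weights called 26, 28, 24, 31, 32 and 30. In E20 against WT its count over all genes stayed within 1.5 times the 8428 of the main fit, and the exact share is not given here. The count of 32 was therefore not shown to be particular to the members. Its other counts over all genes are given below. At least 2-fold in size were 1, 4, 3, 11, 8 and 11, for which no share of all genes is given here. With the 6 set means 0 were called in each. With only the 2 groups compared in the fit, 4 were called in E20/p53 against E20 and 32 in p53 against WT. Over all genes, the counts of these 2 fits stayed within 1.5 times the 6491 and 8259 of the main fit. Exact shares of all genes are not given for them, so these counts were not shown to be particular to the members. Without the set E20 4 to 6, 20 were called in E20/p53 against E20 and 17 in E20 against p53. Without E20 1 to 3, 12 were called in E20 against p53 and 25 in E20 against WT. Without E20/p53 4 to 6, 19 were called in E20/p53 against E20 and 20 in E20/p53 against p53. Over all genes tested, voom called 11557 against 6491, 11796 against 3924 and 10734 against 4709 in the tongue comparisons, and 12486 against 8259 and 11362 against 7333 in p53 and E20/p53 against WT, while the set means called 0, 0, 0, 1, 8 and 1. In E20/p53 against p53, 9734 genes were called without E20/p53 4 to 6, 6410 with the replicate block, and 2331 to 2461 without 1 p53 library. In E20/p53 against E20, 9912 were called without E20/p53 4 to 6. Leaving out 1 library at a time gave 5 to 10, 6 to 11, 5 to 7, 13 to 16, 12 to 15 and 15 to 21. The cause of these shifts was not tested. With Eno1b added, the change of Eno1 in E20/p53 against E20 turned from -0.75 to 0.108, the 1 change of direction among 46 changes of single members. With the longest transcript as gene length, 95 of 114 isozyme shares moved by more than 1 SD.

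With the replicate number as a block, 7, 13, 9, 18, 17 and 18 members were called. In E20/p53 against p53, where 13 members were called, the block also raised the count over all genes, from 3924 to 6410 of 15235. The higher count there was therefore not particular to the members. For the other comparisons, counts over all genes with the block are not given here. The block ended the calls of Pgk1 (adjusted p = 0.0851) and Egln1 (0.0548) in E20/p53 against E20, Bhlhe40 in E20/p53 against p53 (0.0879), Adm in E20 against WT (0.069) and Ankrd37 in E20/p53 against WT (0.116). The numbers did not pair the libraries: deviations from the group means of same-numbered libraries correlated at -0.054 to 0.074 over 21 pairs. Depth limits low values: summed over a set of 3 libraries, the fewest reads of a member were 56 for Aldoc in p53, 63 for Aldoc in E20 1 to 3 and 95 for Car9 in E20 1 to 3.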
